A study of Homo sapiens with 12 samples.

Results

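The genes described here are the 37 genes carried by the human mitochondrial genome, chosen as every gene whose symbol starts with MT- out of the 60709 genes of the deposited tables. They comprise 13 mRNAs for subunits of the respiratory chain, 2 ribosomal RNAs (rRNAs) and 22 transfer RNAs (tRNAs). Duocarmycin SA (DSA) is a DNA alkylating agent that binds in the minor groove of AT-rich DNA, and the question put to these data was which genes changed when acute myeloid leukemia (AML) cells were exposed to it. Bulk RNA sequencing was performed on HL-60 and Molm-14, 2 established AML lines, both grown in medium with heat-inactivated serum. Molm-14 cells were kept in RPMI with 10% serum and treated for 36 h with a low (11.1 pM) or a high (100 pM) concentration of DSA, while HL-60 cells were kept in IMDM with 20% serum and treated for 36 h with 112.7 pM (low) or 500 pM (high). Untreated controls of each line completed 6 groups of 2 libraries, 12 libraries in all. Medium, serum and dose differed between the lines, so a difference between lines cannot be told apart from those 3 factors.

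The mitochondrial genome is a small circle present in many copies per cell. A dedicated polymerase, POLRMT, copies each of its strands into a long precursor. The tRNA sequences that sit between most genes are cut out to release the mRNAs and rRNAs. Most of these then receive short poly(A) tails. All of its proteins are core subunits of respiratory complexes I, III, IV and V, which also need many subunits encoded in the nucleus. Every protein factor that replicates or transcribes mitochondrial DNA, or processes or translates its RNA, is itself encoded in the nucleus.

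The compact layout matters for how these genes can be counted. On the mitochondrial chromosome of hg38, 16569 bases long, 9 of the 15 mRNA and rRNA genes were followed within 2 bases by a tRNA gene and 10 were preceded by one. MT-ND6 and 8 tRNAs lie on the minus strand and the other genes on the plus strand. Of the 13 mRNAs, 7 ended in a complete stop codon in the genome and 6 ended in only T or TA, to which the poly(A) tail adds the missing letters. The last 30 bases of the 2 mRNAs that behaved differently from the rest, MT-ND3 and MT-ND6, are shown with those of 4 others, with the stop letters in capitals.
MT-ND3 (chrM:10375-10404, plus strand): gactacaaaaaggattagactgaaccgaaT
MT-ND6 (chrM:14149-14178, minus strand): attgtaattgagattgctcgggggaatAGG
MT-ND4 (chrM:12108-12137, plus strand): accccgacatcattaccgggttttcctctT
MT-CYB (chrM:15858-15887, plus strand): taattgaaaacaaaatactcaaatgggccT
MT-CO3 (chrM:9961-9990, plus strand): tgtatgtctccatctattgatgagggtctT
MT-CO1 (chrM:7416-7445, plus strand): ttcgaagaacccgtatacataaaatctAGA
MT-ND4, MT-CYB and MT-CO3 ended in a single T like MT-ND3.

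In 2 places a pair of mRNAs shares bases, and a read that lies within the shared stretch cannot be assigned to one of them. The overlaps are printed in capitals with 12 bases on each side, beginning at the start codon of the second gene and ending at the last letter of the first.
MT-ATP8/MT-ATP6 (chrM:8515-8584, plus strand): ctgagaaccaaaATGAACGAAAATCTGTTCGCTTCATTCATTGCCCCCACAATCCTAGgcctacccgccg
MT-ND4L/MT-ND4 (chrM:10748-10778, plus strand): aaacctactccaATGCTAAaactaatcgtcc
The first overlap covers 46 bases and the second 7. All 4 genes are counted below as genes of their own, although the members of a pair are not independent of each other. MT-ATP8, with 207 bases, is the shortest of the 13 mRNAs.

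The 12 libraries held between 21177424 and 63927449 counts each, with a median of 35957896. Of the 37 genes, 15 passed the filter on low counts, namely the 13 mRNAs and both rRNAs, among 17364 genes tested with edgeR. Adjusted p-values below were adjusted over those 17364 genes. The labels do not say that the 2 libraries of a group came from separate cultures, so the p-values measure the spread between these libraries, which may be technical. All 5 Molm-14 marker genes (HOXA7, HOXA9, HOXA10, MEIS1, MEF2C) were higher in Molm-14 than in HL-60 controls, whereas of 5 granule genes listed for HL-60 only MPO and PRTN3 were higher in HL-60, and AZU1, ELANE and CTSG were lower. One pair of libraries stood apart most in the genes described here. In high-dose Molm-14 cells all 15 were higher in replicate 1 than in replicate 2, by 1.30 to 1.61 times, where 95% of the 6334 most abundant genes (mean of at least 1000 counts) had ratios between 0.917 and 1.11. In the HL-60 high-dose pair all 15 were again higher in replicate 1, by 1.05 to 1.29 times (median 1.19). There 95% of the most abundant genes had ratios between 0.871 and 1.14. In the Molm-14 control pair the ratio was 0.821 to 1.04 (median 0.895), against 0.917 to 1.1 for those genes. The mitochondrial results and the pooled counts of nuclear genes that rest on these libraries are given below with and without them. For some single lists of nuclear genes only the count with all libraries is given.

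The 22 tRNAs were almost absent from the libraries. Their summed counts ranged from 0 to 22 per library, and 11 of the 22 had 0 counts in every library. MT-TF, the tRNA for phenylalanine that opens the plus-strand gene row, had the most, with 57 counts over the 12 libraries. It had 7 and 7 counts in Molm-14 controls, 7 and 5 under low-dose DSA and 9 and 11 under high-dose DSA, and in HL-60 cells 2 and 1, 3 and 0, and 2 and 3. MT-TM, for methionine, had 15 counts in all, MT-TL1 had 7 and MT-TT 5. A count of 0 allows up to 3 counts, which equals 0.0479 to 0.135 CPM (the usual scaling of a count to its library total) depending on the library. The tRNA genes are 59 to 75 bases long, and the deposited effective length of each was 0 because they are shorter than the sequenced fragments. Their abundance was therefore not measured by these libraries. The sequence of MT-TF is shown beside that of MT-TV, the tRNA for valine that lies between both rRNAs, since both genes flank MT-RNR1.
MT-TF (chrM:577-647, plus strand): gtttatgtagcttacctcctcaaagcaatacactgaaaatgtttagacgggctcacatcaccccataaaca
MT-TV (chrM:1602-1670, plus strand): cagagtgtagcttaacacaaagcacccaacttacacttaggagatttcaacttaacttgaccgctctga

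In untreated cells, levels per length differed by over an order of magnitude among the mRNAs. On the deposited TPM scale, which divides by length, MT-ATP8 (a subunit of ATP synthase) had the highest level in Molm-14 controls, 4200 ± 558 TPM (SD, n = 2), followed by MT-CO2 (a cytochrome c oxidase subunit), 4010 ± 280. These neighbours did not differ beyond their spread, and the effective length of MT-ATP8 was only 42.17 to 54.17 bases, which makes its TPM sensitive to fragment length. MT-CO3 (3270 ± 303 TPM) and MT-ND3 (2850 ± 32.5) came next. MT-ND5 had 469 ± 63.2 TPM and MT-CYB 854 ± 80.4. MT-ND6, the only mRNA gene on the minus strand, was far below all others, at 43.8 and 48.6 TPM in Molm-14 and 39.6 and 39.6 TPM in HL-60 controls. The same 3 mRNAs, MT-ND6, MT-ND5 and MT-CYB, were the lowest in HL-60, with 841 ± 32.7 TPM for MT-ND5 and 1460 ± 115 for MT-CYB. The rRNA MT-RNR1 (723 ± 45.1 TPM in Molm-14, 600 ± 3.17 in HL-60) lay below 11 of the 13 mRNAs in Molm-14 and below 12 in HL-60. The study's sources say that libraries followed standard Illumina protocols and do not state whether poly(A) RNA was selected or rRNA removed, so the level of the rRNAs relative to the mRNAs is a property of these libraries.

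**Figure D1:**
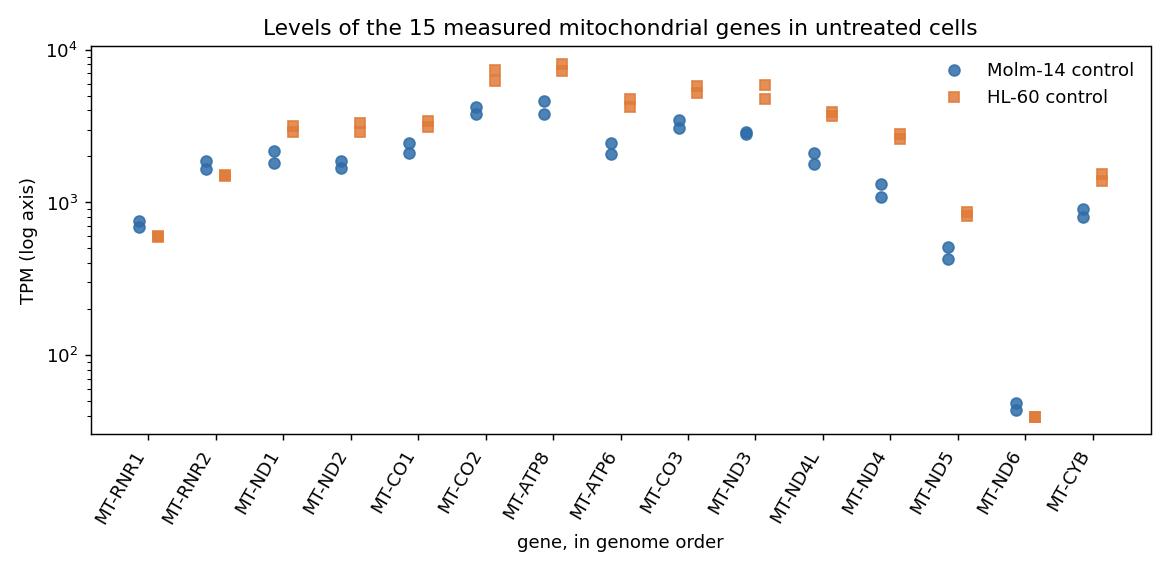
Deposited TPM (log axis) of the 15 measured mitochondrial genes, in genome order, in the 2 untreated libraries of Molm-14 (circles) and of HL-60 (squares). MT-ND6 lies between 39.6 and 48.6 TPM in all 4 libraries, below the other 14 genes, and 12 mRNAs are higher in HL-60 while both rRNAs and MT-ND6 are higher in Molm-14.

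Untreated HL-60 and Molm-14 cells differed in the balance between the mRNAs and the rRNAs. Relative to Molm-14, 12 of 15 genes were higher in HL-60, all of them mRNAs (39.5% of all genes tested were higher), and 3 were lower, MT-ND6, MT-RNR1 and MT-RNR2 (38.7% of all genes were lower). The shares of all genes called were themselves large, so the directions are given as a description of these genes. MT-ND4, a complex I subunit, was 2.08 times as high in HL-60 (log2 fold change 1.06 ± 0.141, SE; edgeR adjusted p = 2e-06, n = 2 per group). MT-RNR1 was 0.774 times as high (log2 -0.37, adjusted p = 0.0113), and MT-RNR2 0.799 times (log2 -0.32, adjusted p = 0.0217). The calls for the 3 lower genes did not survive the omission of libraries: without Molm-14 control replicate 2 none of the 3 was called, and MT-ND6 (log2 -0.33, adjusted p = 0.0493) was lost whichever control library was left out. Measured within the mitochondrial transcripts, the difference was larger. As a percentage of the counts on the 13 mRNAs, MT-RNR2 stood at 15.9 ± 0.158 in Molm-14 and 7.96 ± 0.607 in HL-60 controls, MT-RNR1 at 3.67 ± 0.141 and 1.78 ± 0.142, and MT-ND6 at 0.104 ± 0.00288 and 0.0522 ± 0.00445. Their log2 differences of -0.99, -1.04 and -1.0 passed the edgeR test on that scale (adjusted p = 1.04e-06, 4.1e-06 and 9.25e-05; 51.5% of all genes were lower on it) and were called without each control library in turn.

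Counts on the mitochondrial genes rose with DSA dose in both lines. In Molm-14 they made up 1.47% and 1.68% of the counts of the 2 untreated libraries, 2.45% and 2.35% under low-dose DSA and 4.09% and 2.72% under high-dose DSA. In HL-60 the values were 2.22% and 2.47%, 3.68% and 3.76%, and 5.46% and 4.64%. Neither treated group overlapped its controls in either line, and the high-dose libraries lay above the low-dose libraries. The 95% Wilson intervals reached at most 0.0097 percentage points to either side, which covers counting error only, so the gap between the 2 high-dose Molm-14 libraries was far wider than counting error. Group means were 1.57 ± 0.146%, 2.40 ± 0.0667% and 3.41 ± 0.970% for Molm-14 libraries and 2.35 ± 0.177%, 3.72 ± 0.0522% and 5.05 ± 0.579% for HL-60 libraries (SD, n = 2). In bulk RNA a change in the number of cells of a type and in RNA per cell cannot be told apart, and all values are relative to the other RNA in the library.

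**Figure D2:**
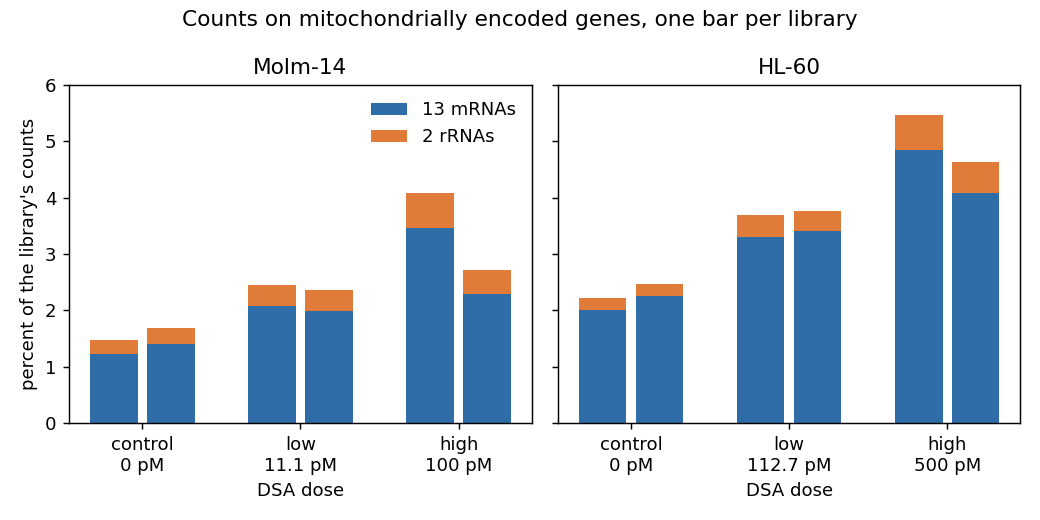
Percent of each library's counts on mitochondrially encoded genes (vertical axis) by DSA dose, with 1 bar per library, split into the 13 mRNAs (lower part) and 2 rRNAs (upper part). The bars rise from 1.47% and 1.68% to 4.09% and 2.72% in Molm-14 and from 2.22% and 2.47% to 5.46% and 4.64% in HL-60.

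At 100 pM DSA all 15 measured genes were higher than in untreated Molm-14 cells (18.3% of all genes tested were higher), and 12 of them by more than 2-fold (3.45% of all genes). The median log2 fold change was 1.12 over the mRNAs and 0.95 over both rRNAs, against 0.00 over all genes tested. Within complex I, which passes electrons from NADH into the chain, MT-ND4 rose most. Its CPM, here and below scaled to the TMM-adjusted library size, were 1179 and 1409 in controls and 4061 and 2530 under high-dose DSA, a 2.55-fold rise (log2 1.35 ± 0.141, adjusted p = 7.65e-07). The other complex I mRNAs on the plus strand rose by 1.22 (MT-ND1), 1.06 (MT-ND2), 1.27 (MT-ND4L) and 1.10 (MT-ND5) on the log2 scale, and MT-ND3 by 0.70. MT-CYB, the only mitochondrially encoded subunit of complex III, had 695.5 and 777.1 CPM in controls and 2188 and 1438 under high-dose DSA (log2 1.30 ± 0.128, adjusted p = 3.74e-07). Of the complex IV subunits, which reduce oxygen, MT-CO1 rose by 1.09, MT-CO2 by 0.92 and MT-CO3 by 1.03, and of the ATP synthase subunits MT-ATP6 rose by 1.14 and MT-ATP8 by 1.15. The 3 genes under 2-fold were MT-ND3, MT-CO2 and MT-RNR1 (log2 0.87). For each of the 15 genes both high-dose libraries lay above both controls (35.0% of all genes were ordered in that way), and all 15 were called with any 1 of these 4 libraries left out, high-dose replicate 1 included.

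At 11.1 pM DSA the same genes showed smaller differences. Of the 15, 12 were higher than in controls, where 0.795% of all genes tested were, with a median log2 fold change of 0.61 over the mRNAs. MT-ND4 had 2178 and 2134 CPM (log2 0.74 ± 0.140, adjusted p = 0.0155), and MT-ND1, at 2360 and 2227 CPM against 1281 and 1500, changed by 0.72 (adjusted p = 0.0160). MT-ND3 (log2 0.15, adjusted p = 0.565), MT-ND6 (0.54, adjusted p = 0.0864) and MT-RNR1 (0.33, adjusted p = 0.275) did not pass the test, although for all 15 genes both low-dose libraries lay above both controls (19.0% of all genes were). None of the 15 passed 2-fold (0.0115% of all genes did). This count depended on each library: it fell to 0 without control replicate 1, low-dose replicate 1 or low-dose replicate 2, and to 5 without control replicate 2. With DESeq2 and with limma-voom it was 2. The shares of all genes called in those fits are not given, so whether calls fell for all genes alike is not shown. Between the high and the low dose all 15 were higher at the high dose (15.3% of all genes tested were), with log2 differences from 0.42 (MT-CO2) to 0.63 (MT-CYB). Without high-dose replicate 1, the library with the highest mitochondrial share, 2 of the 15 remained above the threshold, and without low-dose replicate 2 there were 6. These comparisons share libraries and are not independent of each other.

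**Figure D3:**
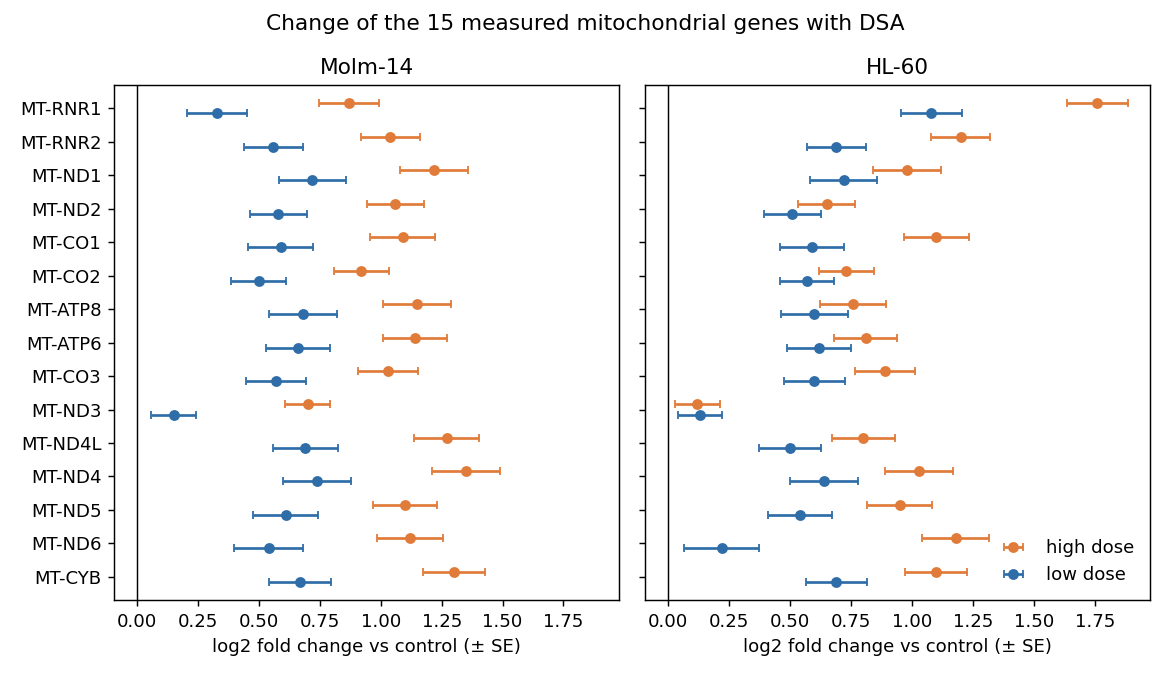
Log2 fold change against untreated controls (horizontal axis, points with ± 1 SE from edgeR) of the 15 measured mitochondrial genes in genome order, at the high and at the low DSA dose, with Molm-14 on the left and HL-60 on the right. MT-ND3 has the smallest change at each dose in both lines (0.70 and 0.15 in Molm-14, 0.12 and 0.13 in HL-60), and MT-RNR1 has the largest in HL-60 (1.76 and 1.08).

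At 500 pM DSA 14 of the 15 genes were higher than in untreated HL-60 cells (32.8% of all genes tested were higher), 6 of them by more than 2-fold (17.0% of all genes), and MT-ND3 was the exception. The median log2 fold change was 0.89 over the mRNAs and 1.48 over the rRNAs, against 0.02 over all genes. MT-CYB had 1107 and 1248 CPM in controls and 2753 and 2293 under high-dose DSA (log2 1.10 ± 0.127, adjusted p = 6.13e-07). MT-CO1 had 3554 and 3890 CPM and then 8726 and 7252 (log2 1.10 ± 0.134, adjusted p = 1.14e-06). MT-ND4 went from 2583 and 2811 CPM to 5977 and 5032, a 2.04-fold rise (log2 1.03 ± 0.140, adjusted p = 4.44e-06). Smaller rises were measured for MT-ND2 (log2 0.65), MT-CO2 (0.73), MT-ATP8 (0.76), MT-ND4L (0.80), MT-ATP6 (0.81), MT-CO3 (0.89), MT-ND5 (0.95) and MT-ND1 (0.98). For 14 genes both high-dose libraries lay above both controls (41.0% of all genes were). The call count was 14 or 15 with any 1 of the 4 libraries left out. The 5 granule genes used as HL-60 markers moved in the same libraries: their summed level was 17300 and 17500 CPM in controls, 13200 and 13600 at 112.7 pM and 6100 and 6110 at 500 pM, and all 5 were lower at the high dose (median log2 fold change -1.44; 32.7% of all genes were lower). The part of that change in the mitochondrial result was not tested. Scaling mattered more in this line. With total counts alone in place of TMM, the median of all genes moved from 0.02 to 0.19. That of the 15 genes moved from 0.95 to 1.12. Such a change shifts all genes by about the same amount, so the equal distance of 0.93 on both scales was fixed in advance.

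At 112.7 pM DSA 13 of the 15 genes were higher in HL-60 (19.7% of all genes tested), with a median log2 fold change of 0.59 over the mRNAs, and 1, MT-RNR1, passed 2-fold (5.06% of all genes). MT-CYB had 1850 and 1944 CPM (log2 0.69 ± 0.126, adjusted p = 0.000277), and MT-ND1 had 3082 and 3371 CPM against 1860 and 2065 (log2 0.72 ± 0.138, adjusted p = 0.000411). MT-ND3 and MT-ND6 did not pass. For 14 genes the groups did not overlap (34.4% of all genes were higher in that way), and the call count was 13 or 14 without any 1 library. At 500 pM, 7 of the 15 were higher than at 112.7 pM (22.1% of all genes), and these were MT-ND6, both rRNAs, MT-CO1, MT-ND4, MT-ND5 and MT-CYB. The log2 difference between doses was 0.96 for MT-ND6 and 0.51 for MT-CO1, but 0.14 for MT-ND2 (adjusted p = 0.341), 0.16 for MT-CO2 and -0.02 for MT-ND3. The count was 3 without high-dose replicate 1 and 4 without low-dose replicate 1. It was also 4 with DESeq2, 13 in a fit to these groups alone and 14 without the filter on low counts, so which genes passed depended on the fit.

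MT-ND3, a small membrane subunit of complex I, rose least. In HL-60 its CPM were 669.5 and 800.4 in controls, 836.2 and 777.1 under low-dose DSA and 843.2 and 751.6 under high-dose DSA, and the groups overlapped. Its log2 fold changes of 0.13 ± 0.0915 and 0.12 ± 0.0915 did not pass the test (adjusted p = 0.270 and 0.279). At the high dose that depended on scaling and on a control library, since the value was 0.28 with total counts alone (adjusted p = 0.0115) and 0.28 without control replicate 2 (adjusted p = 0.0225). As a share of the counts on the 13 mitochondrial mRNAs it fell from 3.24% and 3.46% in HL-60 controls to 2.59% and 2.31% under low-dose DSA and 1.90% and 2.02% under high-dose DSA. The high-dose change, log2 -0.77 ± 0.215, passed the test on that scale (edgeR adjusted p = 0.000697; 58.3% of all genes were lower on it, its denominator being a sum that rose), and it was called without each library in turn. In Molm-14 the share was 3.39% and 2.90% in controls, 2.16% and 2.40% under low-dose and 2.20% and 2.60% under high-dose DSA. Both treated groups of Molm-14 lay below the controls, but the log2 changes of -0.46 and -0.39 did not pass (adjusted p = 0.0529 and 0.0916), and the high-dose change passed once high-dose replicate 2 was left out (adjusted p = 0.00197). MT-ND3 is 346 bases long, and its effective length was 161.61 to 180.33 bases in HL-60, reaching 179.89 and 180.33 in replicate 1 of the low and high dose. The part of fragment length in the result was not tested.

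MT-RNR1 and MT-RNR2, the RNAs of the small and the large mitochondrial ribosomal subunit, were higher after treatment with the high dose in both lines. In HL-60, MT-RNR1 had 388.4 and 388.4 CPM in controls, 894.9 and 746.8 under low-dose DSA and 1346 and 1284 under high-dose DSA. The rise was 3.39-fold at the high dose (log2 1.76 ± 0.125, adjusted p = 1.2e-09) and 2.11-fold at the low dose (log2 1.08 ± 0.124, adjusted p = 2.15e-06), the largest of the 15 genes at both. MT-RNR2 had 1733 and 1742 CPM in controls, 2856 and 2739 under low-dose DSA and 4345 and 3658 under high-dose DSA (log2 1.20 ± 0.122 for the high dose, adjusted p = 1.2e-07). In Molm-14 the rRNAs rose about as much as the mRNAs or less: MT-RNR1 had 485.4 and 518.5 CPM in controls and 1111 and 720.9 under high-dose DSA (log2 0.87 ± 0.123), and MT-RNR2 changed by 1.04 ± 0.122. Set against the mitochondrial mRNAs, MT-RNR1 in HL-60 rose from 1.88% and 1.68% to 2.77% and 2.22% and then 3.04% and 3.45%. The log2 change on that scale was 0.87 ± 0.214 at the high dose (adjusted p = 0.000135; 9.45% of all genes were higher on it) and was called without each library in turn. At the low dose it was 0.49 (adjusted p = 0.0479; 2.08% of all genes), which was lost without any 1 of the 4 libraries. In Molm-14 the same share went from 3.76% and 3.57% to 3.02% and 3.02% and then 3.10% and 3.09%, lower in both treated groups though not past the test (adjusted p = 0.246 and 0.298). The MT-RNR2 share did not pass with DSA in either line. In HL-60 it was 8.39% and 7.54% in controls and 9.80% and 9.83% under high-dose DSA. In Molm-14 it was 16% and 15.7%, then 15.1% and 15.1%. The fit on this scale takes its spread from all genes tested, and nuclear genes move with the mitochondrial sum. Shares that did not pass can therefore still differ beyond the spread of their own libraries.

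Nuclear transcripts that lack or largely lack poly(A) tails were also higher in treated HL-60 cells. Of 14 such genes tested, 9 were higher at the high dose (32.8% of all genes were), with a median log2 fold change of 0.82, and 7 at the low dose (19.7% of all genes; median 0.69), and the others did not pass the test. Between the doses, 4 of the 14 were higher and 2 lower at the high dose (22.1% and 23.2% of all genes), with a median of 0.11. MT-RNR1 differed between the doses by 0.68 and MT-RNR2 by 0.52. RN7SK, a small nuclear RNA that restrains transcription elongation, had 16.9 and 13.2 CPM in HL-60 controls, 39.4 and 27.7 under low-dose DSA and 45.8 and 58.5 under high-dose DSA (log2 1.83, adjusted p = 4.5e-09). RN7SL1 and RN7SL2, the RNAs of the signal recognition particle, changed by 1.28 and 1.29. In Molm-14 2 of the 14, the histone genes H2AC11 (log2 1.37) and H1-2 (0.68, lost without control replicate 2 or high-dose replicate 1), were higher at the high dose (median of the list -0.01), and RN7SK had 22 and 17.2 CPM in controls and 22.2 and 20.7 under high-dose DSA. The summed level of the list was 113 and 187 CPM in HL-60 controls, 195 and 230 under low-dose and 319 and 395 under high-dose DSA, while in Molm-14 it lay between 73.6 and 105 CPM in all 6 libraries. The part of library composition in the rRNA result was not tested.

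MT-ND6, a complex I subunit and the only mRNA transcribed from the minus-strand gene row, had few counts, between 283 and 1421 per library. In HL-60 it had 11.43 and 11.34 CPM in controls, 12.78 and 13.55 under low-dose DSA and 27.54 and 24.33 under high-dose DSA. The low dose thus lay just above the controls (log2 0.22 ± 0.154, adjusted p = 0.289) and the high dose well above both (log2 1.18 ± 0.138 against controls, adjusted p = 6.96e-07). Its share of the mitochondrial mRNA counts was 0.0554% and 0.0491%, then 0.0396% and 0.0403%, then 0.0621% and 0.0654%. The low-dose libraries had the lowest and the high-dose libraries the highest shares, and the high-to-low difference of 0.67 on the log2 scale passed (adjusted p = 0.0411; 5.29% of all genes were higher on it) but was lost without any 1 of the 4 libraries. In Molm-14, MT-ND6 had 13.69 and 14.85 CPM in controls, 19.51 and 21.88 under low-dose DSA and 37.16 and 24.68 under high-dose DSA (log2 1.12 ± 0.134, adjusted p = 3.72e-06), and its share stayed between 0.0914% and 0.107%. The sources used here do not give the strand setting of the counting. Without it, reads from MT-ND6 and from the opposite strand of the same stretch cannot be told apart.

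**Figure D4:**
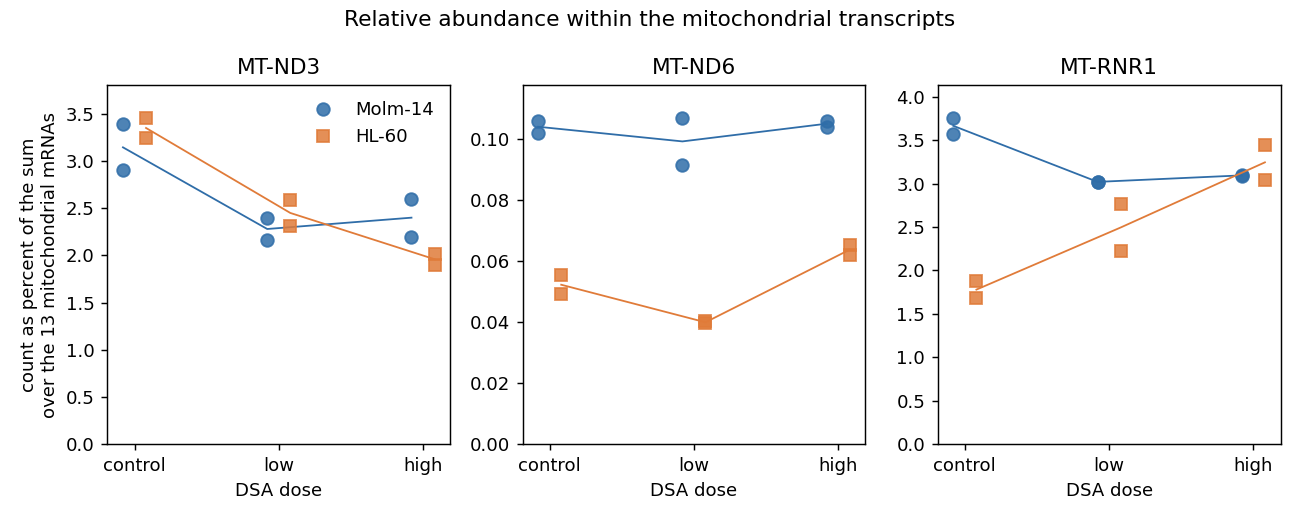
Count of MT-ND3, MT-ND6 and MT-RNR1 as a percent of the summed count of the 13 mitochondrial mRNAs (vertical axes, each from 0) by DSA dose, with 1 point per library and lines through the means, for Molm-14 (circles) and HL-60 (squares). In HL-60, MT-ND3 falls from 3.24% and 3.46% to 1.90% and 2.02% and MT-RNR1 rises from 1.88% and 1.68% to 3.04% and 3.45%.

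The difference in response between the lines was itself tested, as the HL-60 change minus the Molm-14 change. At the high doses MT-RNR1 changed more in HL-60, by 0.89 ± 0.173 on the log2 scale (adjusted p = 0.000372; 21.2% of all genes tested were higher in this comparison). MT-ND3 changed less in HL-60, by -0.59 ± 0.130 (adjusted p = 0.00121; 24.6% of all genes were lower), and MT-ND4L by -0.47 ± 0.184 (adjusted p = 0.0446). The other 12 genes did not pass. At the low doses MT-RNR1 differed by 0.75 ± 0.174 (adjusted p = 0.00352; 12.2% of all genes), and 0 of the 15 were lower with edgeR (0 also at an unadjusted p under 0.05; 14.9% of all genes were lower), with 2 lower without the filter on low counts and 1 in a fit to the groups compared alone. The MT-RNR1 and MT-ND3 calls held without each library in turn, whereas MT-ND4L was lost without Molm-14 high-dose replicate 1 (log2 -0.12, adjusted p = 0.469) and without either HL-60 control, HL-60 high-dose replicate 2 or Molm-14 control replicate 1. How many genes were lower at the high doses depended on the libraries and on the fit. There were 11 lower without high-dose Molm-14 replicate 2, 5 without HL-60 high-dose replicate 1, and 1 without high-dose Molm-14 replicate 1, when 4 were higher, or without HL-60 control replicate 2, HL-60 high-dose replicate 2 or Molm-14 control replicate 1. With all libraries there were 11 without the filter on low counts and 1 with DESeq2, limma-voom, RLE factors, total counts alone, overlapping genes summed, a mean of at least 50 counts, the groups compared alone or the replicate block. On the scale relative to the mitochondrial mRNAs only MT-RNR1 differed between lines at the high doses (1.11 ± 0.302, adjusted p = 0.00402; 9.85% of all genes), and this was lost without HL-60 control replicate 2 (adjusted p = 0.0711). Doses were not equal between lines, so these are comparisons of 11.1 with 112.7 pM and of 100 with 500 pM.

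Sequence composition varied little among the 15 genes, with 52.3% to 60.4% A and T. Across these genes, which share libraries and are not independent, Spearman's rho between AT content and the high-dose log2 fold change was -0.08 in Molm-14 and -0.27 in HL-60 (n = 15). With gene length it was 0.04 and 0.50. MT-ATP8 and MT-ND3 had the highest AT content, 60.4% and 59.8%, and MT-ND1 the lowest, 52.3%. Their high-dose changes in HL-60 were 0.76, 0.12 and 0.98.

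Nuclear copies of mitochondrial sequence could take reads from the genes described here. Of 404 such copies in the tables, 3 averaged 50 counts or more, and all copies together held 1.05% to 1.46% of the counts of the mitochondrial genes. MTATP6P1, on chromosome 1 (chr1:633696-634376), held 11.9% to 15% of the MT-ATP6 count, MTND2P28 held 2.81% to 3.23% of that of MT-ND2, and MTCO1P12 0.32% to 0.41% of that of MT-CO1. MTND1P23, MTCO2P12 and MTND6P4 followed with at most 28, 9 and 11 counts in any library. The log2 fold changes of MTATP6P1 (1.21 in Molm-14 and 0.94 in HL-60 at the high dose), MTND2P28 (1.0 and 0.78) and MTCO1P12 (1.11 and 1.02) were near those of MT-ATP6 (1.14 and 0.81), MT-ND2 (1.06 and 0.65) and MT-CO1 (1.09 and 1.10). Reads could not be assigned to one or the other with certainty. Adding the copies to their mitochondrial genes kept each dose count within 1.5 times of its value.

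Among the nuclear genes that serve the mitochondrial genome, more were lower than higher at the high dose. Over 5 lists that cover transcription, DNA maintenance, RNA processing, RNA stability and translation, 95 genes were tested. At the high dose in Molm-14 6 were higher and 42 lower (median log2 fold change -0.12; 19.1% of all genes tested were lower), and in HL-60 7 were higher and 68 lower (median -0.38; 32.7% of all genes were lower), against 15 and 14 of the 15 mitochondrial genes that were higher. At the low dose 0 were called in Molm-14 with edgeR (2 higher and 7 lower at an unadjusted p under 0.05). Of all genes 0.795% were higher and 0.196% lower there, so the 0 is not read as a trait of these lists. In low-dose HL-60 9 were higher and 48 lower (19.7% of all genes were higher and 22.3% lower). With total counts alone 18 were higher and 56 lower at the high dose of HL-60. The Molm-14 counts at the high dose depended on the libraries: 27 to 32 were lower and 3 to 5 higher with any 1 of the 4 libraries left out, and 27 and 32 were the counts of lower genes without high-dose replicates 1 and 2. In HL-60 64 to 67 were lower and 4 to 7 higher, the 4 being without high-dose replicate 2.

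Of 10 transcription factors of the mitochondrial genome, 5 fell in Molm-14 (3 to 4 with any 1 library left out) and 7 in HL-60 at the high dose, and the others did not pass the test. TFAM, which packages mitochondrial DNA and activates its promoters, had 159 and 167 CPM in Molm-14 controls and 132 and 135 under high-dose DSA (log2 -0.29 ± 0.0512, adjusted p = 0.000228). In HL-60 it had 132 and 122 CPM in controls, 86.5 and 82.3 under low-dose DSA and 70.8 and 70.1 under high-dose DSA (log2 -0.84 ± 0.0545, adjusted p = 3.34e-10). The 3 HL-60 groups did not overlap, with the highest TFAM level in controls and the lowest at the high dose. The promoter factor TFB2M changed by -0.17 in Molm-14 and -0.76 in HL-60, the family member MTERF3 by -0.24 and -0.98, and the polymerase POLRMT by -0.19 and -0.33. The Molm-14 calls were lost for TFB2M without control replicate 1 (adjusted p = 0.109) or high-dose replicate 2 (0.0807), for MTERF3 without control replicate 2 (0.0539), and for POLRMT without control replicate 2 (0.0775) or high-dose replicate 2 (0.187).

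Of 9 genes for stability and decay of mitochondrial RNA, 6 fell in Molm-14 and 8 in HL-60. LRPPRC, which binds and stabilises mitochondrial mRNAs, had 672 and 647 CPM in HL-60 controls, 565 and 545 under low-dose DSA and 415 and 400 under high-dose DSA (log2 -0.69 ± 0.0358, adjusted p = 1.72e-11), and changed by -0.18 in Molm-14. PNPT1, the polynucleotide phosphorylase of the mitochondrial degradosome, fell by 0.76 in HL-60 and by 0.22 in Molm-14, and its helicase partner SUPV3L1 fell by 0.54 and 0.25. Of 36 genes for RNA processing and modification, 1, the methyltransferase gene MRM2 (log2 0.25), rose and 14 fell in Molm-14 (6 to 8 without any 1 library), and 30 fell in HL-60 with the other 6 not called. With total counts alone 5 were higher and 21 lower in HL-60. TRMT10C, a subunit of the enzyme that cuts the 5′ ends of mitochondrial tRNAs, fell by 0.94 in HL-60, FASTKD3 by 1.14 and PUS1, a pseudouridine synthase, by 0.60, while PUS1 fell by 0.59 in Molm-14.

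Of 21 DNA maintenance genes, 4 were higher and 10 lower at the high dose in Molm-14 (18.3% and 19.1% of all genes tested). In HL-60 7 were higher and 11 lower (32.8% and 32.7% of all genes). The same shares stand beside the other high-dose list counts. The counts of higher genes were near those shares and are not read as a trait of the list. The genes that rose included enzymes of nucleotide metabolism. RRM2B, a ribonucleotide reductase subunit induced by p53, had 41.7 and 42.3 CPM in Molm-14 controls and 81.5 and 82.9 under high-dose DSA (log2 0.97 ± 0.0501, adjusted p = 1.16e-10), and had a log2 difference of -0.18 in HL-60, lost without control replicate 1 or either high-dose library. TYMP, thymidine phosphorylase, rose by 1.01 in Molm-14 and 1.51 in HL-60. TK2 (0.19) and POLG2 (0.23), named after their values were seen, were the other 2 that passed in Molm-14, but TK2 was lost without any 1 of the 4 libraries and POLG2 without control replicate 1 or either high-dose library. TK2, the mitochondrial thymidine kinase, had 3.49 and 3.72 CPM in HL-60 controls and 9.14 and 9.82 under high-dose DSA (log2 1.39 ± 0.0945, adjusted p = 6.21e-10). Among the genes that fell in HL-60 were LIG3, the mitochondrial DNA ligase (log2 -0.92), and TWNK, the replicative helicase (-0.80). Of 19 genes listed for translation, 1 was higher and 7 fell in Molm-14. The higher one, SURF1, is an assembly factor of complex IV rather than a translation factor. Its call (log2 0.25, named after its value was seen) was lost without control replicate 1 or high-dose replicate 2. In HL-60 12 fell with the other 7 not called (4 higher and 12 lower with total counts alone). Among those that fell were the elongation factor GFM1 (-0.21 in Molm-14 and -0.66 in HL-60) and C1QBP (-0.29 and -0.69). Of 8 regulators of mitochondrial biogenesis, 4 fell in Molm-14 with the other 4 not called, and 6 fell and 1 rose in HL-60. The one that rose, the coactivator gene PPARGC1A (named after its value was seen), was near the detection limit, with at most 0.199 CPM in any HL-60 library, and its call was lost without either control or high-dose replicate 2. NRF1, a transcription factor for many nuclear mitochondrial genes, changed by -0.60 in Molm-14 and -0.76 in HL-60, and GABPB1 by -0.46 and -0.90.

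The nuclear partners of the mitochondrially encoded subunits showed small median differences. Of 78 nuclear subunits tested, 4 were higher and 44 lower at the high dose in Molm-14 (median log2 fold change -0.12; 18.3% of all genes were higher and 19.1% lower). The count of lower subunits there was 29 without high-dose replicate 1, 24 without high-dose replicate 2, 24 without control replicate 1 and 32 without control replicate 2. In HL-60 16 were higher and 40 lower (median -0.10; 32.8% of all genes were higher and 32.7% lower), but with total counts alone this turned to 34 higher and 21 lower (median 0.07), so no direction is given for HL-60. In complex I, 3 of 37 nuclear subunits rose (NDUFC1, NDUFV3 and NDUFB5, by 0.28, 0.27 and 0.20, named after their values were seen; NDUFB5 was lost without control replicate 2) and 19 fell in Molm-14, where NDUFB6 changed by -0.46 and NDUFA9 by -0.34. In complex III, 1 of 9 rose (UQCRB, 0.12, also named after its value was seen, and lost without control replicate 2 or high-dose replicate 1) and 5 fell in Molm-14. In complex IV, 7 of 11 fell in Molm-14, with COX8A at -0.32, and in HL-60 6 were higher and 3 lower, or 8 higher and the other 3 not called with total counts alone, with COX6B1 at 0.29. In complex V, 11 of 17 fell in Molm-14, a count that was 2 to 9 with any 1 library left out, while the counts of lower genes in Molm-14 were then 11 to 14 in complex I, 3 to 4 in complex III and 4 to 6 in complex IV. ATP5MC1 changed there by -0.30, beside 1.14 for the mitochondrial MT-ATP6. Complex II, which has no mitochondrially encoded subunit, had 2 of 4 lower in Molm-14 and 1 higher and 3 lower in HL-60. At the low dose in Molm-14 0 of the 78 were called with edgeR (1 higher and 12 lower at an unadjusted p under 0.05). Of all genes 0.795% were higher and 0.196% lower there, so the 0 is not read as a trait of these subunits. In low-dose HL-60 25 were higher and 18 lower (19.7% and 22.3% of all genes), or 39 and 9 with total counts alone.

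**Figure D5:**
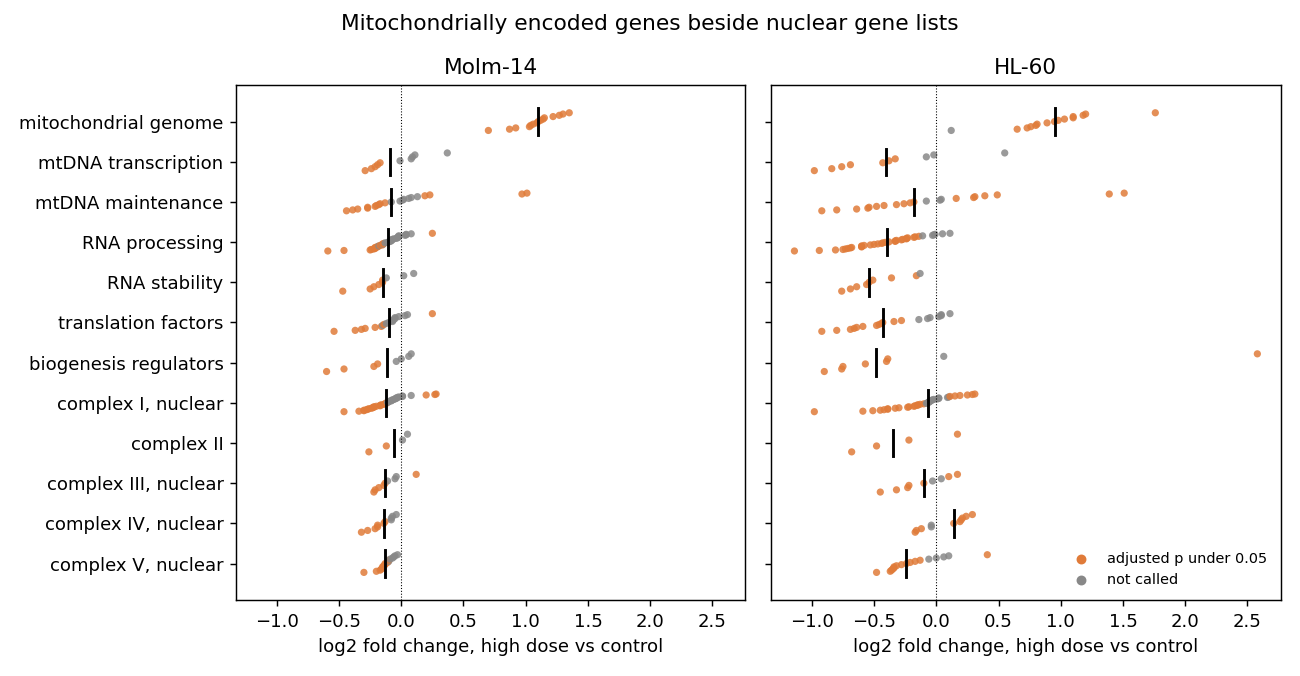
Log2 fold change at the high DSA dose against controls (horizontal axis) of the 15 mitochondrially encoded genes and of 11 lists of nuclear genes, with 1 point per gene, orange where the edgeR adjusted p is under 0.05, and a black bar at each median. The mitochondrial genes lie at a median of 1.10 in Molm-14 and 0.95 in HL-60, while the medians of the nuclear lists lie between -0.54 and 0.14 in both panels.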

How the data were processed

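RNA of HL-60 or Molm-14, with or without 36 h of DSA, was sequenced in 12 libraries. Per the submitters' processing notes and the study's methods, the authors trimmed reads with Trim Galore 0.60, aligned them to hg38 with STAR 2.7 and estimated gene abundance with RSEM 1.31 against GENCODE release 31. The deposited files hold expected counts and TPM per gene; whether libraries were stranded and how RNA was selected are not given in the sources used here. The controls are labelled as untreated, while the methods name a vehicle.

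Expected counts were rounded to whole numbers. Of 60754 identifiers per table, 60306 matched GENCODE release 44, which gave symbols and positions, and 45 copies in the pseudoautosomal region of Y were left out. Genes passing filterByExpr (17364) were normalised by TMM and tested with edgeR 4.0.16 (glmQLFit and glmQLFTest, R 4.3.3), 1 coefficient per group over all 12 libraries, with Benjamini-Hochberg adjustment and a threshold of 0.05. All gene types were kept, since the mitochondrial genes carry GENCODE level 3. A second fit used the summed count of the 13 mitochondrial mRNAs as library size. Its spread was estimated over all genes tested, so its p-values do not measure the spread of the mitochondrial shares alone. Alternatives were DESeq2 1.42.0, limma-voom (limma 3.58.1), RLE factors, total counts alone, TMM over nuclear genes, no filter or a mean of at least 50 counts, thinning to the smallest total, summing overlapping genes, adding nuclear copies, a replicate block and leaving out each library. Counts for the nuclear lists under other scalings and without each library were added after seeing the data. Leaving out a library leaves 1 in its group. The shares of all genes called in the alternative fits are not given beside their counts. Replicate numbers showed no sign of pairing libraries, which does not exclude pairing. The script was tested on simulated data. Of its calls at an adjusted p under 0.05 (edgeR), 22 of 209 were false for high-dose Molm-14 and 18 of 205 for high-dose HL-60. That is a larger share than the threshold allows, so calls near it are to be taken with caution. Changes of 0.5 on the log2 scale were recovered in 82.1% and 80.6% of the genes. The simulation was run 1 time per comparison and changed far fewer genes than were called at the high doses in the data. Both rates depend on how many genes change, so they need not carry over to these comparisons. Library totals ran from 21177424 to 63927449. Intervals and floors cover counting error only.

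All 37 genes are accounted for. Of each nuclear list, up to 4 genes with the smallest p at the high dose in either line were eligible for naming, with the 6 most abundant nuclear copies. The genes, lists and tests were chosen with earlier results of these data known. Sequences are from the hg38 mitochondrial chromosome.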

Additional observations from a re-analysis of the deposited data

Results flagged for a closer look

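Of the 15 measured mitochondrial genes, 3 differed between the lines in their response to DSA by a test of the difference itself (HL-60 change minus Molm-14 change, edgeR). At the high doses the log2 difference was 0.89 for MT-RNR1 (adjusted p = 0.000372), -0.59 for MT-ND3 (adjusted p = 0.00121) and -0.47 for MT-ND4L (adjusted p = 0.0446). At the low doses it was 0.75 for MT-RNR1 (adjusted p = 0.00352). MT-RNR1 rose more in HL-60, where 9 of 14 nuclear RNAs that lack or largely lack poly(A) tails were also higher at the high dose (32.8% of all genes were), and MT-ND3 rose in Molm-14 at the high dose but did not pass the test in HL-60. The MT-ND4L call was lost without any 1 of 5 libraries, with an adjusted p of 0.469 without Molm-14 high-dose replicate 1. Dose and medium differed between the lines and cannot be told apart from the line.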

How the results depend on the processing

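No called mitochondrial gene changed direction under any alternative run. Of the nuclear genes called in high-dose HL-60, 8 respiratory chain subunits and 2 genes of the 5 lists changed sign with total counts alone, none of them past the test in the new direction. The counts of 15, 14 and 13 genes higher in high-dose Molm-14, high-dose HL-60 and low-dose HL-60 stayed within 1.5 times under every alternative but the 2-fold rule, which left 6 in high-dose HL-60 and 1 in low-dose HL-60. That rule left 0 genes in low-dose Molm-14, in both comparisons of the high with the low dose and in the differences between lines, and 1 higher and 0 lower between the controls. Without 1 library the counts higher were 15 to 15 in high-dose Molm-14, 0 to 5 in low-dose Molm-14 (12 in full), 2 to 15 between its doses, 14 to 15 and 13 to 14 in high- and low-dose HL-60, 3 to 9 between its doses, and 10 to 12 higher and 0 to 2 lower between controls. The difference between lines at the high doses gave 1 to 4 higher and 1 to 11 lower, and at the low doses 1 to 1 higher. On the scale relative to the mitochondrial mRNAs the ranges were 0 to 1 higher for that difference at the high doses, 0 to 0 for high against low dose and for low dose against control in HL-60 (1 each in full), and 0 to 1 lower for high-dose Molm-14.

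DESeq2 called 2 genes in low-dose Molm-14, 7 between its doses, 4 between the HL-60 doses, and 1 lower between controls, where limma-voom also gave 1, with 2 in low-dose Molm-14. Without a filter on low counts 14 genes were higher between the HL-60 doses, and the line differences gave 2 higher and 11 lower at the high and 2 lower at the low doses. Fits to the groups compared alone gave 13 between the HL-60 doses and 1 lower in the low-dose line difference. The 2 lower genes in the high-dose line difference became 1 with DESeq2, limma-voom, a mean of at least 50 counts, the groups compared alone, overlapping genes summed, RLE factors, total counts alone and the replicate block. The block changed no other count by over 1.5 times. Deviations of same-numbered libraries, taken over all genes tested, correlated between -0.04 and 0.05. That gave no sign of pairing by number but cannot exclude it, since noise in low-count genes enters the measure. A run on protein-coding genes with the 13 mRNAs left out the rRNAs by construction. It gave 0 higher in both line differences, where MT-RNR1 had been the only gene. It also gave 0 lower between controls. There MT-ND6, which was kept in the run, lost its call. With the rRNAs in the denominator 1 gene was higher between controls and 0 in low-dose HL-60. With 2 libraries per group, the spread between libraries rather than depth limits the mRNAs and rRNAs. Fragment length limits the tRNAs.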
